A study of Danio rerio with 16 samples.

Results

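The 4 POU family transcription factor genes pou5f3, pou2f1b, pou3f1 and pou3f3a were followed across 16 samples of zebrafish embryos. Every array probe that the platform's annotation assigns to one of these symbols was taken, which gave 7 of 21495 probes tested, and 4 of 9238 gene symbols. pou5f3 had 2 probes, pou3f3a had 3, and pou2f1b and pou3f1 had 1 each. The array held 18 probes of 12 POU symbols in all.

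POU proteins bind DNA through a pair of linked domains, the POU-specific domain and the POU homeodomain, and many recognise octamer motifs. In zebrafish, pou5f3 encodes the factor long called Pou5f1, which the egg supplies as maternal mRNA and which, with Nanog and SoxB1 proteins, takes part in the first transcription of the embryo's own genome. In mammals the related POU5F1 (OCT4) acts together with SOX2 in pluripotent cells. Class III genes such as pou3f1 and pou3f3a are known mainly from the developing nervous system, and class II genes such as pou2f1b are related to mammalian Oct-1, which is broadly expressed.

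All samples were whole embryos in which cycloheximide blocked the making of new protein. The drug was given at 15 µg/ml, starting 1.5 hours after fertilization, until freezing at 4.7 hours, and each sample pooled 60 to 100 embryos. The MZ_Pou5f1 group (3 samples) was MZ mutant embryos given 100 pg of Pou5f1 mRNA each. MZ_Sox2 (4 samples) and WT_Sox2 (3 samples) were MZ mutant and wild-type embryos given 50 pg of Sox2 mRNA each. MZ (3 samples) and WT (3 samples) were the uninjected embryos of the same genotypes. MZ embryos carried the m793 allele of spg, the mutant locus of pou5f3. An injected mRNA reaches cells throughout the embryo and not only those that express the gene. The series describes its replicates as biological. Because whole embryos were pooled, fewer cells of a type and less RNA per cell cannot be told apart in any value below.

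The samples did not separate by their group labels, and the names used here are the labels. Only 6 of the 16 samples had their highest rank correlation, over 10747 bright probes, with a sample of their own group. WT replicates 1 and 2 correlated at 0.997, MZ_Pou5f1 replicate 3 and WT replicate 1 at 0.993, and MZ_Sox2 replicate 3 and MZ replicate 3 at 0.987. WT replicate 3 was nearest to MZ replicate 2, at 0.943. The samples lay on 13 arrays and 4 slides, and 3 arrays held an MZ and a WT sample side by side. The ratio of a pair of Agilent control features, E1A_r60_n9 over E1A_r60_a22, was 5.46 to 11.8 in 6 samples and 0.0526 to 0.2 in the other 10, and these classes did not follow the labelled dye. Of the 7 samples labelled Cy5, 3 had the high ratio, and of the 9 labelled Cy3, 3 did. Samples labelled with opposite dyes on 1 array were both high for MZ replicate 1 and WT replicate 2, and both low for MZ replicate 2 and WT replicate 3. On the remaining shared array MZ replicate 3, labelled Cy3, was low and WT replicate 1, labelled Cy5, was high. The pou5f3 intensity is given with 2 columns mapped by rank, as described below. It had a median of 19200 in the 6 samples with the high ratio and 34700 in the other 10. It ranged between 14100 and 61100 in the first class and 15500 and 62100 in the second. By labelled dye its median was 25700 in Cy5 samples and 38200 in Cy3 samples. The part of these differences in the results below was not tested beyond the alternative fits given at the end.

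**Figure D1:**
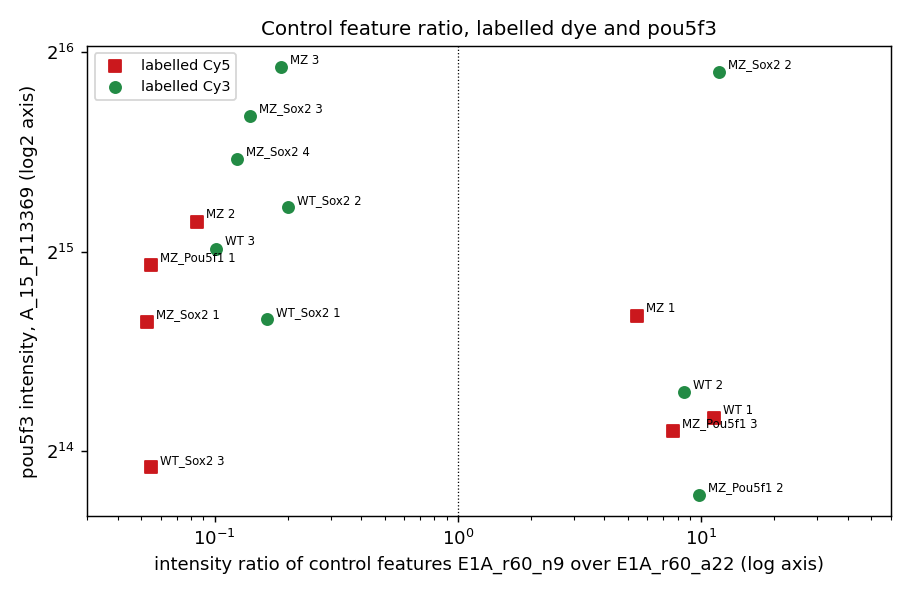
Each point is 1 sample; the x axis is the ratio of 2 control features on a log scale and the y axis is the intensity of pou5f3 probe A_15_P113369 on a log2 scale, with the labelled dye as colour and shape. The 6 samples at 5.46 and above and the 10 at 0.2 and below form separate classes that each hold both labelled dyes.

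The gene altered in MZ embryos, pou5f3, was bright in every sample and was not called different in any comparison. Probe A_15_P113369 (gene ID 30333) read 31300, 14100 and 17600 in MZ_Pou5f1 replicates 1 to 3 and 25700, 61100, 52500 and 45200 in MZ_Sox2 replicates 1 to 4, as intensities on a linear scale. It read 25900, 38200 and 15500 in WT_Sox2 embryos, 26200, 36300 and 62100 in MZ embryos and 18400, 20100 and 33100 in WT embryos. Here and below, MZ_Sox2 replicate 4 and MZ_Pou5f1 replicate 2 are given after mapping by rank, and their deposited values were 73400 and 19200. As mapped, the highest values were those of MZ replicate 3 and MZ_Sox2 replicate 2 and the lowest that of MZ_Pou5f1 replicate 2. As deposited, the highest was MZ_Sox2 replicate 4 and the lowest WT_Sox2 replicate 3, at 15500. Every pair of groups compared overlapped. The signal was above both negative control features in all 16 samples and spanned 4.4-fold as mapped.

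The other pou5f3 probe, A_15_P117974, read 16700, 9660 and 14500 in MZ_Pou5f1 embryos and 15900, 36200, 36300 and 33100 in MZ_Sox2 embryos. It read 20900, 26200 and 10600 in WT_Sox2 embryos, 15300, 21200 and 39800 in MZ embryos and 14300, 13100 and 25800 in WT embryos. It ordered the samples much as the other probe did, with a Pearson r of 0.96 and a Spearman rho of 0.97 over the 16 samples, both probes having been read from the same hybridisations. The 2 probes are annotated to different transcript records of the gene. The labels and files do not place them relative to the m793 lesion or to the injected mRNA, so a signal in MZ embryos neither checks nor contradicts the genotype.

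**Figure D2:**
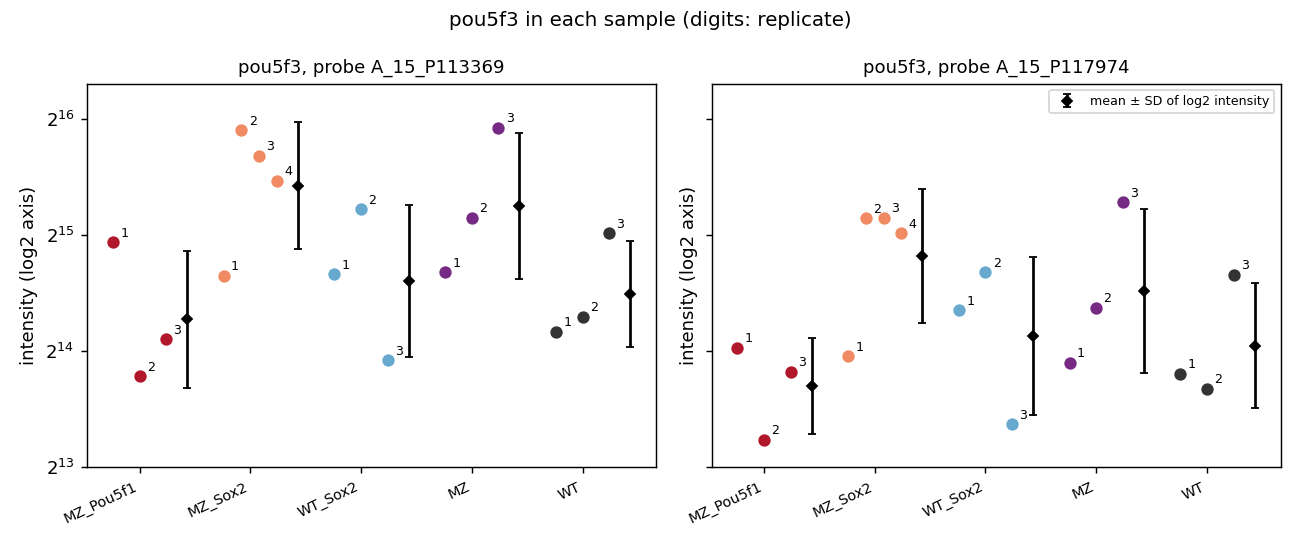
The 2 panels show the intensity of each pou5f3 probe on a log2 axis in every sample, by group, with the replicate number beside each point and the mean ± SD of log2 intensity as a diamond with bars. The groups overlap, and MZ_Sox2 replicate 1 sits below the other 3 MZ_Sox2 samples in both panels.

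As mean log2 intensity ± SD, A_15_P113369 stood at 14.27 ± 0.59 in MZ_Pou5f1 (n = 3), 15.42 ± 0.54 in MZ_Sox2 (n = 4), 14.60 ± 0.65 in WT_Sox2, 15.25 ± 0.63 in MZ and 14.49 ± 0.46 in WT embryos (n = 3 each). Probe A_15_P117974 stood at 13.70 ± 0.41 in MZ_Pou5f1, 14.82 ± 0.57 in MZ_Sox2, 14.13 ± 0.68 in WT_Sox2, 14.52 ± 0.70 in MZ and 14.05 ± 0.53 in WT embryos. Both probes thus placed MZ_Sox2 highest, followed by MZ, WT_Sox2, WT and MZ_Pou5f1. The sample values of each neighbouring pair in this order overlapped. Differences between the 5 groups held 47.9% of the variance of A_15_P113369 and 40.3% of that of A_15_P117974, against a median of 32.7% over all probes.

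Uninjected MZ embryos were set against WT embryos to read the effect of the genotype. The difference in pou5f3 was 0.95 on the log2 scale for A_15_P113369 (SE 0.40, 95% interval 0.07 to 1.83, unadjusted p = 0.0357), and the p adjusted over all probes in limma was 0.385. For A_15_P117974 it was 0.68 (95% interval -0.18 to 1.54, limma adjusted p = 0.494). Neither passed the threshold of 0.05. On the 3 arrays that held both genotypes, MZ minus WT was 1.75, 0.38 and 0.14 for A_15_P113369 and 1.47, 0.22 and -0.29 for A_15_P117974. The array with the largest difference held MZ replicate 3 and WT replicate 1 and was the only one of the 3 on slide 3. There the MZ sample was labelled Cy3 and the WT sample Cy5, whereas on slide 4, with 2 samples of each genotype and differences of 0.26 and -0.03, both MZ samples were labelled Cy5 and both WT samples Cy3. The slide 3 array was also the only one of the 3 whose samples fell in opposite control feature classes. Slide, dye orientation and control feature class thus cannot be told apart in these within-array values. Without MZ replicate 3 the fitted differences were 0.73 and 0.42, and without WT replicate 1 they were 1.02 and 0.84. Of the 7 POU probes 0 were called here, where 0.00465% of all probes were.

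Embryos of MZ_Pou5f1 were set against uninjected MZ embryos to read the response to Pou5f1 mRNA. The pou5f3 difference was -0.98 for A_15_P113369 (SE 0.40, 95% interval -1.85 to -0.10, limma adjusted p = 0.409) and -0.82 for A_15_P117974 (limma adjusted p = 0.414), so the probes read lower in the group given that gene's mRNA, short of the threshold. Slide 3 held all 3 MZ_Pou5f1 samples and MZ replicate 3, and there the differences were -1.65 and -1.58. Without MZ_Pou5f1 replicate 2, the lowest sample on both probes after mapping by rank, they were -0.43 and -0.27, and without MZ replicate 3 they were -0.80 and -0.59. Against WT embryos, MZ_Pou5f1 embryos differed by -0.03 (95% interval -0.92 to 0.87, limma adjusted p = 0.987) and -0.14 (limma adjusted p = 0.925). Of the 7 POU probes 0 were called in either comparison, where 0% of all probes were.

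In both groups given Sox2 mRNA the pou5f3 difference from uninjected embryos was near 0, and its 95% intervals stayed within 1 log2 unit for both probes. In MZ_Sox2 against MZ embryos A_15_P113369 differed by -0.07 (SE 0.39, 95% interval -0.92 to 0.79, limma adjusted p = 0.964) and A_15_P117974 by 0.04 (limma adjusted p = 0.977). In WT_Sox2 against WT embryos the differences were 0.11 (SE 0.40, 95% interval -0.76 to 0.98, limma adjusted p = 0.921) and 0.09 (limma adjusted p = 0.937). The Sox2 difference in MZ minus that in WT embryos was -0.18 (95% interval -1.38 to 1.03, limma adjusted p = 0.944) and -0.05 (limma adjusted p = 0.985). No slide held both the injected and the uninjected embryos of either genotype, so the slide and the Sox2 injection cannot be told apart there. Of the 7 POU probes 0 were called in MZ_Sox2 against MZ, where 0% of all probes were, 0 in WT_Sox2 against WT, where 0.0977% were, and 0 for the difference between genotypes, where 0% were.

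Among Sox2-injected embryos, MZ_Sox2 differed from WT_Sox2 by 0.77 (SE 0.38, 95% interval -0.04 to 1.59, limma adjusted p = 0.679) and 0.63 (limma adjusted p = 0.76) for the 2 pou5f3 probes. On slide 1, which held MZ_Sox2 replicate 1 and the 3 WT_Sox2 samples, the differences were 0.05 and -0.17. Between the injected MZ groups, MZ_Pou5f1 against MZ_Sox2 gave -0.91 (95% interval -1.76 to -0.06, unadjusted p = 0.0383) and -0.85 (95% interval -1.69 to -0.02, unadjusted p = 0.0462), each with a limma adjusted p of 1. Without MZ_Pou5f1 replicate 2 they were -0.24 and -0.18. No slide held both MZ_Pou5f1 and MZ_Sox2 samples, so the slide and the injected mRNA cannot be told apart in that comparison. Of the 7 POU probes 0 were called in MZ_Sox2 against WT_Sox2, where 0.0186% of all probes were, and 0 in MZ_Pou5f1 against MZ_Sox2, where 0% were. The comparisons share groups, so they are not separate evidence about pou5f3.

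**Figure D3:**
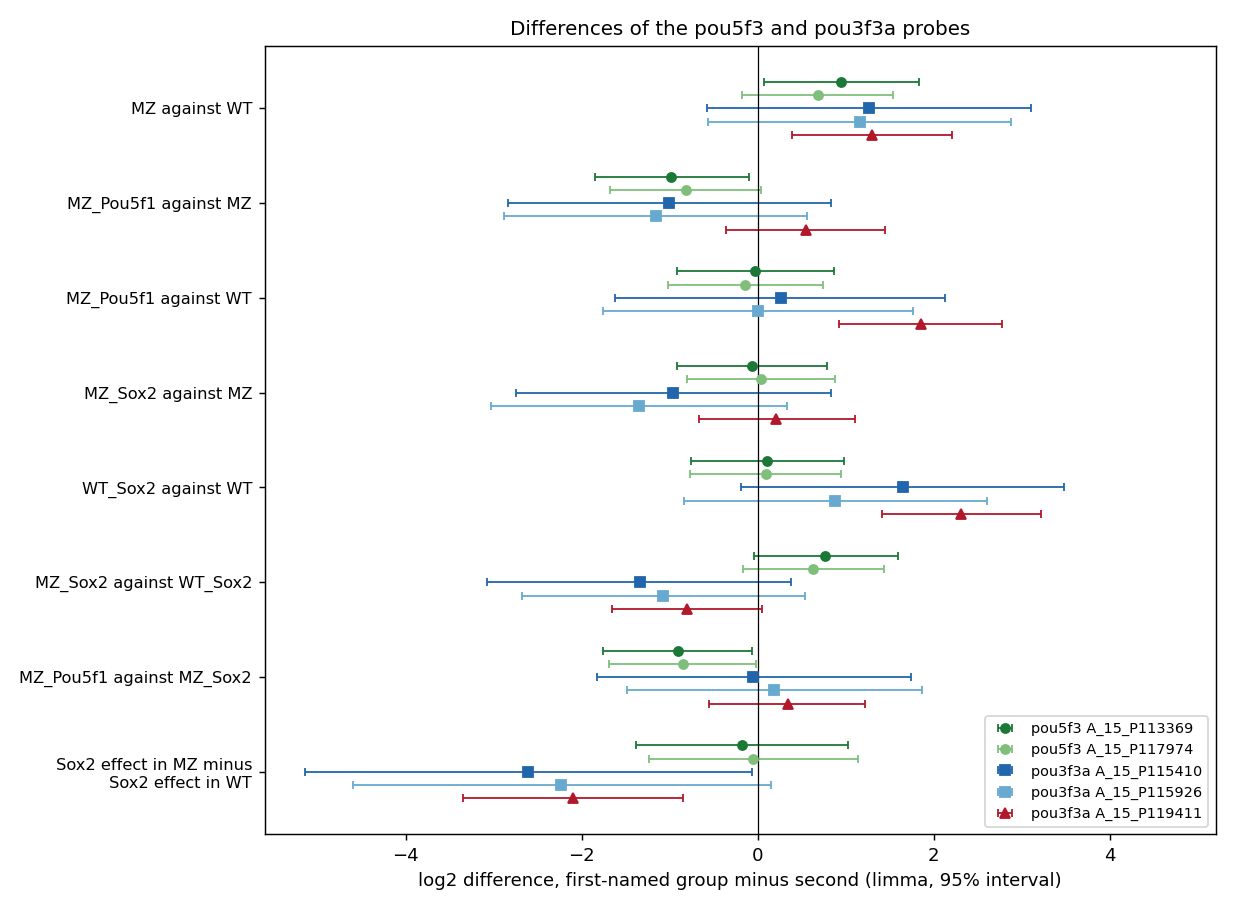
Points are log2 differences, the group named before the word against minus the group named after it, with 95% intervals from limma, for the pou5f3 probes (circles) and pou3f3a probes (squares and triangles) in 8 comparisons. The pou5f3 probes lie at 0.95 and 0.68 in MZ against WT and near 0 in both Sox2 comparisons, and pou3f3a probe A_15_P119411 reaches 2.31 in WT_Sox2 against WT.

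The 3 probes of pou3f3a, a class III gene (gene ID 30386), did not follow one another as those of pou5f3 did. A_15_P115410 read 350, 456 and 111 in MZ_Pou5f1 embryos, 261, 144, 538 and 594 in MZ_Sox2 embryos, 611, 2040 and 421 in WT_Sox2 embryos, 710, 590 and 344 in MZ embryos and 129, 128 and 1030 in WT embryos. A_15_P115926 read 88.7, 116 and 98.3 in MZ_Pou5f1 embryos, 52.7, 97.8, 103 and 179 in MZ_Sox2 embryos, 159, 352 and 148 in WT_Sox2 embryos, 405, 332 and 83.2 in MZ embryos and 45.1, 67.4 and 441 in WT embryos. In these 2 probes WT replicate 3 stood far above the other WT samples. A_15_P119411 read 61.3, 89.5 and 64.5 in MZ_Pou5f1 embryos, 40.6, 60.2, 54.0 and 67.9 in MZ_Sox2 embryos, 65.9, 129 and 104 in WT_Sox2 embryos, 70.2, 44.7 and 35.9 in MZ embryos and 26.8, 26.5 and 10.1 in WT embryos. There WT replicate 3 was instead the lowest of all 16 samples.

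Over the 16 samples A_15_P115410 and A_15_P115926 correlated at a Pearson r of 0.80, whereas A_15_P119411 correlated with them at 0.21 and 0.09. A_15_P115926 and A_15_P119411 are annotated to the same transcript record, so the annotation does not separate the probes that disagree. In WT replicate 3 and MZ replicate 1 a negative control feature read 52.8 and 133, above A_15_P119411 itself, so that probe was above both negative features in 14 of 16 samples and its level in those 2 samples is not separated from background.

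In MZ against WT embryos A_15_P119411 differed by 1.30 (SE 0.42, 95% interval 0.39 to 2.21, unadjusted p = 0.00882, limma adjusted p = 0.32), and its lowest MZ value lay above the highest WT value, an order that 5.23% of all probes showed. A_15_P115410 differed by 1.26 (SE 0.85, limma adjusted p = 0.541) and A_15_P115926 by 1.16 (SE 0.79, limma adjusted p = 0.548), with overlapping samples. On the array that MZ replicate 2 shared with WT replicate 3 A_15_P115410 and A_15_P115926 ran the other way, at -0.80 and -0.41, against 2.47 and 2.59 on the array of MZ replicate 1 and WT replicate 2. On the array of MZ replicate 3 and WT replicate 1, where both values were above the negative features, A_15_P119411 was higher in the MZ sample by 0.42. Each array on slide 4 held 1 value of this probe that was not separated from background, so no difference is given for it there. Of the 7 POU probes 2, this one and that of pou2f1b, had groups that did not overlap, where 13.2% of all probes had in either direction.

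Among the 7 POU probes the smallest p in any comparison was that of A_15_P119411 in WT_Sox2 against WT embryos, with a log2 difference of 2.31 (SE 0.42, 95% interval 1.41 to 3.22, unadjusted p = 0.000113), with a limma adjusted p of 0.0611, short of the threshold. All 3 WT_Sox2 samples lay above all 3 WT samples. This was 1 of the 7 POU probes, where 27.3% of all probes had groups that did not overlap in this comparison, 12% with WT_Sox2 the higher. The difference was 1.65 (SE 0.84, limma adjusted p = 0.399) for A_15_P115410 and 0.88 (SE 0.79, limma adjusted p = 0.636) for A_15_P115926. No slide held both WT_Sox2 and WT samples, so the slide and the Sox2 injection cannot be told apart in this comparison. WT_Sox2 replicates 1 and 2 also had the low E1A control feature sums given at the end. In MZ_Pou5f1 against WT embryos A_15_P119411 differed by 1.85 (SE 0.43, 95% interval 0.92 to 2.77, limma adjusted p = 0.599), and by 1.40 within slide 3. It was again 1 of the 7 POU probes without overlap, where 15.5% of all probes had none, 6.66% with MZ_Pou5f1 the higher. The Sox2 difference in MZ minus that in WT embryos was -2.10 for A_15_P119411 (SE 0.58, limma adjusted p = 0.381), -2.61 for A_15_P115410 (SE 1.17, limma adjusted p = 0.539) and -2.23 for A_15_P115926 (SE 1.09, limma adjusted p = 0.568), with 0 of the 3 called. The same WT samples stand on the lower side of the WT comparisons named here, among them WT replicate 3, whose A_15_P119411 value was not separated from background.

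The pou2f1b probe (A_15_P114473, gene ID 323702) read 13.9, 22.3 and 81.3 in MZ_Pou5f1 embryos, 17.7, 18.7, 19.7 and 12.6 in MZ_Sox2 embryos, 45.5, 60.7 and 17.4 in WT_Sox2 embryos, 18, 13.6 and 16.4 in MZ embryos and 28.4, 19.1 and 45.4 in WT embryos. All 3 MZ values lay below all 3 WT values, where 7.96% of all probes showed that order. The difference was -0.80 (SE 0.61, 95% interval -2.12 to 0.51, limma adjusted p = 0.58). The WT value farthest from MZ, that of replicate 3, was below a negative control feature of that sample, as was the value of MZ replicate 1, and over the 8 comparisons the smallest limma adjusted p of this probe was 0.491.

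The pou3f1 probe (A_15_P120644, gene ID 30398) was at the level of the background. Its intensity ran over the 16 samples between 6.69 and 20.8 with a median of 7.03, and it exceeded both negative control features in 3 samples, MZ_Sox2 replicates 1 and 2 and MZ replicate 2. No fold is given for it, and its smallest limma adjusted p over the 8 comparisons was 0.659.

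**Figure D4:**
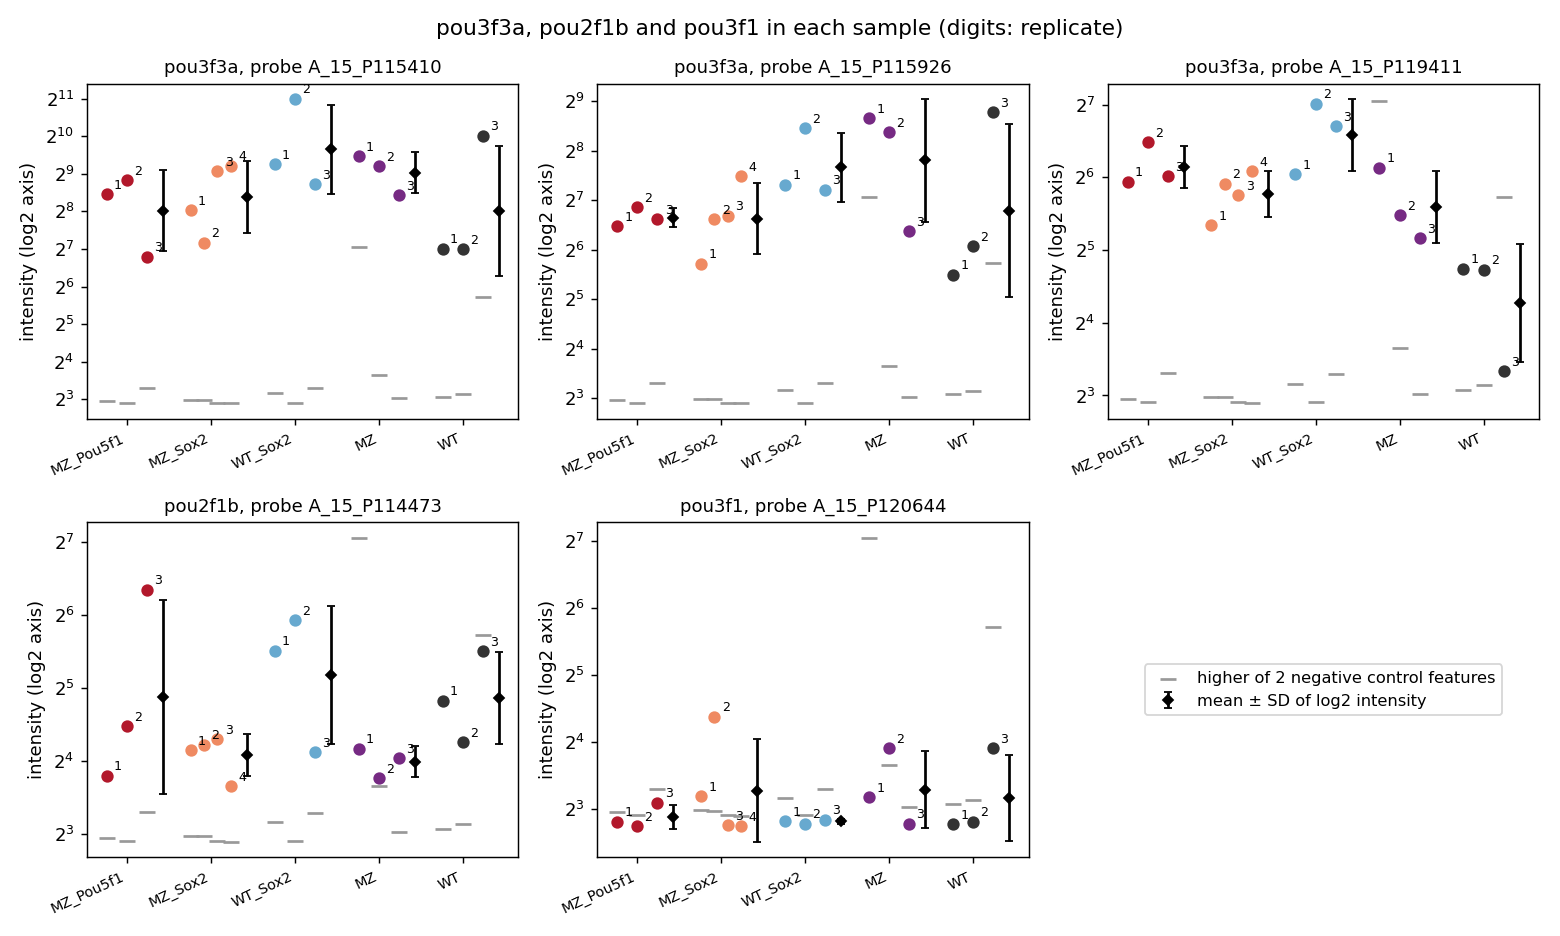
Panels show the intensity on log2 axes of the 3 pou3f3a probes, pou2f1b and pou3f1 in every sample by group, with replicate numbers, the mean ± SD of log2 intensity as a diamond with bars, and the higher of 2 negative control features on each array as a grey dash. In 13 of 16 samples the pou3f1 points lie at or below the dash, and WT replicate 3 is high in 2 pou3f3a panels and lowest in the third.

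Over the 7 probes and 8 comparisons, 56 tests, the count of calls was 0 and 9 tests had an unadjusted p under 0.05. An unadjusted p under 0.05 was reached by 2 of the 7 probes in MZ against WT, where 12.2% of all probes reached it, by 1 in MZ_Pou5f1 against MZ, where 12.2% did, and by 1 in MZ_Pou5f1 against WT, where 7.24% did. In WT_Sox2 against WT it was 1 of 7, where 14.5% of all probes reached it. In MZ_Sox2 against MZ and MZ_Sox2 against WT_Sox2 it was 0 of 7, where 4.82% and 7.57% did. In MZ_Pou5f1 against MZ_Sox2 it was 2 of 7, the pou5f3 probes, where 2.12% did, and for the Sox2 difference between genotypes it was 2 of 7, of pou3f3a, where 9.09% did. Each of these 2 pairs of probes belongs to 1 gene, the pou5f3 pair with a Pearson r of 0.96. The MZ_Pou5f1 and MZ_Sox2 samples shared no slide. In 4 comparisons 0 of these 7 probes had groups that did not overlap. The share of all probes with no overlap there was 17% in MZ_Pou5f1 against MZ, 4.2% in MZ_Sox2 against MZ, 10.3% in MZ_Sox2 against WT_Sox2 and 5.28% in MZ_Pou5f1 against MZ_Sox2. The other 11 POU probes, of 8 further genes, gave 0 calls in 88 tests and 12 unadjusted p values under 0.05. By comparison, between 2.12% and 14.5% of all probes reached such a p, as given above.

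Of these other genes, pou2f1a, pou6f1 and pou3f2a had a probe brighter on average than the median probe. The pou2f1a probe, the second Oct-1 type gene, read 2710, 1840 and 1050 in MZ_Pou5f1 embryos and 1370, 1510 and 2520 in WT_Sox2 embryos, both groups lying above the 923, 1040 and 599 of WT embryos. That order was shown by 6.66% of all probes in MZ_Pou5f1 against WT and by 12% in WT_Sox2 against WT. The differences were 1.13 (SE 0.46, limma adjusted p = 0.67) in MZ_Pou5f1 against WT and 1.06 (SE 0.45, limma adjusted p = 0.309) in WT_Sox2 against WT. The WT_Sox2 and WT samples shared no slide. pou6f1, a class VI gene, was the steadiest of the POU probes above the median, with 418 to 734 over all samples. It read 551, 424 and 440 in MZ embryos, below the 713, 674 and 734 of WT embryos, an order that 7.96% of all probes showed. The difference was -0.62 (SE 0.23, limma adjusted p = 0.357). The brighter pou3f2a probe, A_15_P101980, ranged between 16.1 and 226. Its log2 difference in MZ_Pou5f1 against MZ embryos was -2.28 (SE 0.82, limma adjusted p = 0.409). The other pou3f2a probe, A_15_P102690, did not share that direction, at 0.22 (SE 0.44, limma adjusted p = 0.82).

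Genes whose intensity followed pou5f3 over the 16 samples were sought among 6088 named genes brighter than the median probe. The 5 closest were tdgf1, the Nodal co-receptor also called one-eyed pinhead, at a Pearson r of 0.906, hspb1, a small heat shock protein, at 0.868, dleu7 at 0.863, and the chemokine receptors cxcr4a and cxcr4b at 0.856 and 0.851. Over all genes searched the median r was -0.04, and 1.1% had an r above 0.7. The points share arrays, slides and the sample structure given above, so these values describe the samples only. The other members had other companions, namely tecrl2b (0.93), qars1 (0.91) and neu3.2 (0.899) for pou3f3a probe A_15_P115410, socs6b (0.786), hmg20b (0.759) and pink1 (0.751) for pou2f1b, and srrm1 (0.91), mid1ip1b (0.902) and igf2bp3 (0.888) for pou3f1, whose values lie mostly at background.

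A list of 22 early regulators known from work on zebrafish Pou5f1, of which 19 were measured, was set beside pou5f3. Their r with pou5f3 had a median of 0.65 and ran between 0.01 for sox32 and 0.91 for tdgf1, and 14 of 19 lay above 0.5, where 5.37% of the genes searched did. The 19 were read in the same samples, and tdgf1 is also the closest gene of the search above. They are thus not separate observations, the list was chosen with earlier results of these data known, and the count describes the samples only. In MZ against WT embryos 18 of 19 had a positive log2 difference with a median of 1.82, beside a median of -0.04 over all probes, and 0 were called. The 2 with the largest moderated statistics were the Krüppel-like factors klf17, at 6.10 (SE 1.59, limma adjusted p = 0.297), and klf2b, at 4.89 (SE 1.44, limma adjusted p = 0.31). Over the 16 samples klf17 ran down to 9.48, near the level of the negative control features, so the size of its differences is uncertain. The summed intensity of the 19 ran between 91700 and 129000 in MZ and between 22000 and 103000 in WT embryos, so these ranges overlapped. WT replicates 1 and 2, which correlated at 0.997, make up 2 of the 3 WT samples. In MZ_Pou5f1 against MZ embryos 0 of 19 were positive, with a median of -2.68 beside 0.06 over all probes, and 0 were called. There the SoxB1 gene sox3 stood at -4.45 (SE 1.08) and klf2b at -5.91 (SE 1.44), each with a limma adjusted p of 0.409. These 2 comparisons share the MZ samples.

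The list in the remaining comparisons also gave 0 calls. In MZ_Pou5f1 against WT embryos 2 of 19 were positive with a median of -0.88, and vent, a ventral homeobox repressor, and sox2 stood at -1.51 and -1.64. In MZ_Sox2 against MZ embryos 2 of 19 were positive with a median of -1.86, with sox2 at -1.90 and the FGF ligand gene fgf8a at -2.52. In WT_Sox2 against WT embryos 7 of 19 were positive with a median of -0.30, with sox2 at -2.68 (limma adjusted p = 0.12) and vent at -1.85. The sox2 probe was thus lower, short of the threshold, in both groups given Sox2 mRNA. It was also lower, at -2.61 (SE 0.69, limma adjusted p = 0.409), in MZ_Pou5f1 against MZ embryos, neither given Sox2 mRNA. Whether this probe can read the injected mRNA is not stated. In MZ_Sox2 against WT_Sox2 embryos 16 of 19 were positive with a median of 0.90, with sox2 at 1.75 and vent at 1.21. In MZ_Pou5f1 against MZ_Sox2 embryos 0 of 19 were positive with a median of -1.24, with klf17 at -5.08 and tdgf1 at -0.83. For the Sox2 difference in MZ minus that in WT 5 of 19 were positive with a median of -0.92, with the forkhead gene foxd3 at -5.30 and klf17 at -4.48. The lowest foxd3 intensity, 5.58, was also at the level of the background, so the size of that difference is uncertain too. The median over all probes lay between -0.06 and 0.06 in these comparisons.

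Genes switched on in the blastoderm also differed widely between samples of a group. The summed intensity of 8 zygotic blastoderm markers (tbxta, eve1, vox, vent, gsc, chrd, foxd3 and klf17), 4 of which are also on the list above, ran between 2340 and 13300 in MZ_Pou5f1, 3660 and 33700 in MZ_Sox2, 5710 and 17300 in WT_Sox2, 29800 and 54000 in MZ, and 5730 and 52200 in WT embryos. Within WT it was 52200 in replicate 3, against 6750 and 5730 in replicates 1 and 2, and replicate 3 also had the highest pou5f3 value of the WT samples on both probes. Within MZ_Sox2 it was 3660 in replicate 1, the sample with the lowest pou5f3 value of its group, against 18700 to 33700 in the other 3. MZ replicate 3, the brightest sample for pou5f3 in the mapped values, had the lowest sum of its group, so the correspondence was not complete. All 6 measured maternal egg transcripts were above the median probe, with sums of 104000 to 192000 in MZ_Pou5f1, 104000 to 182000 in MZ_Sox2, 107000 to 182000 in WT_Sox2, 140000 to 199000 in MZ and 147000 to 188000 in WT embryos. Sums for 9 enveloping layer genes ran between 1020 and 2190 in MZ_Pou5f1, 1120 and 44500 in MZ_Sox2, 1410 and 2710 in WT_Sox2, 1640 and 20100 in MZ, and 1200 and 11400 in WT embryos, with low ends alike in all groups. Of the markers of the yolk syncytial layer 2 of 7 measured were brighter on average than the median probe, and of those of the germ plasm all 6 measured were. Yolk syncytial layer sums were 1440 to 3910 in MZ_Pou5f1, 3020 to 62900 in MZ_Sox2 and 14200 to 44800 in MZ embryos. They were 3010 to 15100 in WT_Sox2 and 2480 to 43200 in WT embryos. Germ plasm sums were 72000 to 93900 in MZ_Pou5f1, 27100 to 62000 in MZ_Sox2 and 38800 to 68700 in MZ embryos. They were 85100 to 111000 in WT_Sox2 and 45700 to 83400 in WT embryos. The MZ_Pou5f1 and MZ sums did not overlap in either of these lists, nor in that of the zygotic blastoderm. Of single probes, which are not sums, 17% had groups that did not overlap there. Germ plasm sums also did not overlap in WT_Sox2 against WT, MZ_Sox2 against WT_Sox2 and MZ_Pou5f1 against MZ_Sox2. By gene in MZ_Pou5f1 against MZ, 5 of 7 yolk syncytial layer markers were higher, with a median log2 difference of 0.08, while apoeb stood at -7.14. All 6 germ plasm markers were higher there, with a median of 0.29. Of the 8 zygotic blastoderm markers 0 were higher, with a median of -3.17. In these lists 0 genes were called. The part of these cell types in the pou5f3 differences was not tested.

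**Figure D5:**
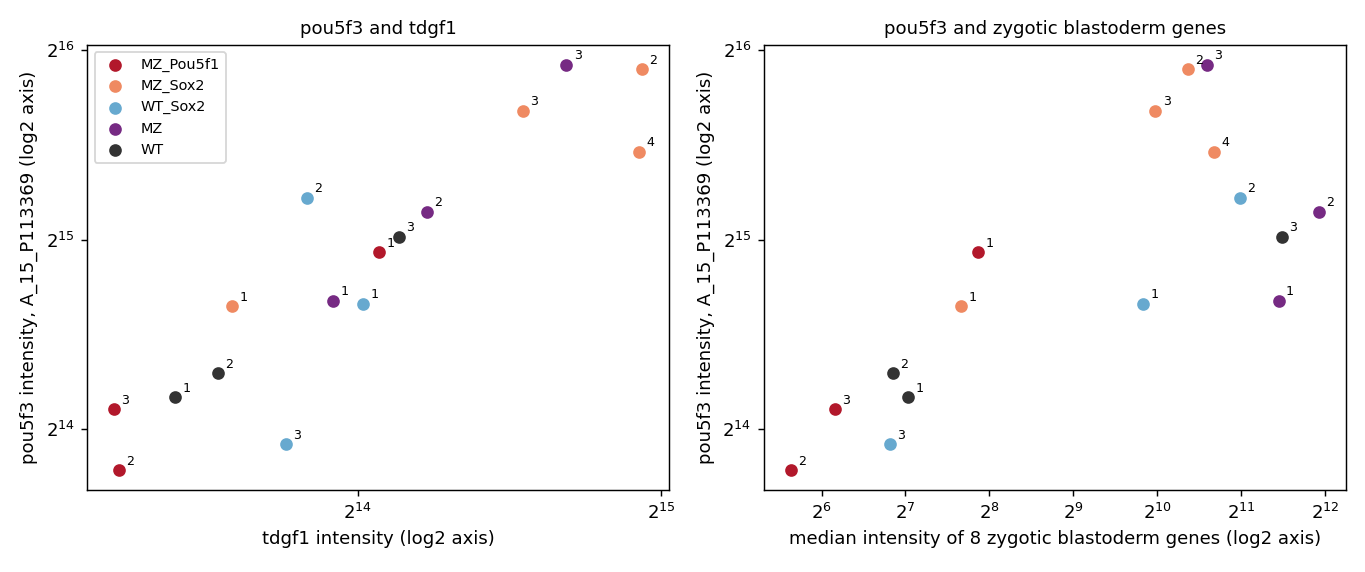
Each point is 1 sample, with group as colour and replicate number beside it; the y axes give pou5f3 intensity (A_15_P113369) and the x axes tdgf1 intensity (left) and the median intensity of 8 zygotic blastoderm genes (right), all on log2 scales. The pou5f3 and tdgf1 values rise together with a Pearson r of 0.906 over 16 samples. MZ_Pou5f1 replicates 2 and 3, WT replicates 1 and 2 and WT_Sox2 replicate 3 sit low in both panels.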

How the data were processed

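Total RNA of whole embryos was read on Agilent 2-colour arrays with 1 sample per dye channel. The deposited tables give 1 column of linear intensity per sample. Agilent Feature Extraction is named in the submitters' processing notes. Cy3 and Cy5 channels were separated by the authors and then quantile normalised, per the labels. Neither the background correction nor a genome build is stated.

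In 14 of 16 columns the sorted values were identical (median 55.07). The other 2, MZ_Sox2 replicate 4 and MZ_Pou5f1 replicate 2, were mapped by rank onto that distribution before log2 was taken. The intensities of their POU probes are given as mapped. The 14 columns were used as deposited. Of 21555 features, 60 controls were left out. The annotation gave 12887 probes 1 gene symbol, 0 several and 8608 none. RefSeq gene tables, of an assembly that the series does not name, were used for names only, and matched the gene ID of all 18 POU probes. Arrays give no read depth, and their number limits the precision. Probe sequences were not used here.

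One limma fit held all 16 samples, with a mean per group, labelled dye as covariate and array as random block (correlation 0.0429, 10 residual and 2.31 prior degrees of freedom). Moderated two-sided tests were adjusted by Benjamini-Hochberg across the 21495 probes, and an adjusted p under 0.05 was called. Genes with several probes are described probe by probe. Other POU genes are named where called or brighter on average than the median probe, look-alikes are the 5 (pou5f3) or 3 highest by Pearson r, and from the early regulator list up to 3 called genes, otherwise the 2 of largest moderated statistic, are named. Replicate numbers were checked for pairing by the correlation of deviations from group means, which ran from -0.68 to 0.51 between same-numbered samples, so they were not taken as pairs. The members, lists and tests were chosen with earlier results of these data known. Fits used limma 3.58.1 in R 4.3.3, and figures matplotlib 3.10.9.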

Additional observations from a re-analysis of the deposited data

Results flagged for a closer look

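The pou5f3 probe A_15_P117974 read 15900 in MZ_Sox2 replicate 1 and 33100 to 36300 in the other 3 MZ_Sox2 samples. Its gap to the nearest of the others was 0.886 of the group's whole range on the log2 scale, above the 95% critical value of Dixon's test for 4 samples. The other pou5f3 probe gave 0.651 for the same sample, under that value. Chance alone flags about 1 in 20 groups, and 7 probes were examined in this group. MZ_Sox2 replicate 1 was the only Cy5-labelled and the only slide 1 sample of its group, and its zygotic blastoderm marker sum was 3660 against 18700 to 33700 in the others. The part of these in the low value was not tested.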

How the results depend on the processing

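No pou5f3 probe was called under any alternative run, over 202 tests with another setting and 256 with 1 replicate left out, and its sign changed in 23 and 24 of them. Of the 56 POU differences 32 kept their sign throughout. Limma sample weights, which ran between 0.1 for WT replicate 3 and 4.32 for WT replicate 2, called 2 POU probes in MZ against WT, 1 in MZ_Pou5f1 against WT, 3 in WT_Sox2 against WT and 3 for the Sox2 difference between genotypes, all of pou3f3a, with smallest adjusted p of 0.0141, 0.00828, 0.000917 and 0.0138. With the same weights the calls over all probes reached 4666, 3040, 6524 and 3222 in these comparisons, 1802 in MZ_Pou5f1 against MZ and 1546 in MZ_Sox2 against WT_Sox2, against 1, 0, 21, 0, 0 and 4.

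Leaving out 1 replicate gave 0 to 1 POU calls in MZ against WT and in WT_Sox2 against WT and 0 in each other comparison. Without WT replicate 2, pou3f3a A_15_P119411 was called in MZ against WT (adjusted p = 0.033), and without MZ_Pou5f1 replicate 3 in WT_Sox2 against WT (adjusted p = 0.0409). Its difference ran from 0.87 to 1.58, from 1.83 to 2.58, and in MZ_Pou5f1 against WT from 1.42 to 2.13. All-probe calls ran from 0 to 1431 in MZ against WT (most without WT replicate 2), from 0 to 958 in MZ_Pou5f1 against MZ (without MZ replicate 3), from 0 to 190 in WT_Sox2 against WT (without MZ_Pou5f1 replicate 3), from 0 to 97 in MZ_Sox2 against WT_Sox2 (without WT_Sox2 replicate 3), from 0 to 22 for the difference between genotypes, from 0 to 8 in MZ_Sox2 against MZ and from 0 to 5 in MZ_Pou5f1 against WT.

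For pou5f3 A_15_P113369 and A_15_P117974, the values with 1 replicate left out ran from 0.73 to 1.11 and 0.42 to 0.87 in MZ against WT, from -1.42 to -0.43 and -1.10 to -0.27 in MZ_Pou5f1 against MZ, from -0.43 to 0.62 and -0.39 to 0.52 in MZ_Pou5f1 against WT, from -0.20 to 0.16 and -0.09 to 0.31 in MZ_Sox2 against MZ, from -0.12 to 0.29 and -0.11 to 0.30 in WT_Sox2 against WT, and from -0.33 to 0.08 and -0.23 to 0.23 for the difference between genotypes. Sign changes under other settings touched only differences near 0. In MZ_Pou5f1 against WT the probes gave 0.17 and 0.09 on the deposited values without mapping, 0.18 and 0.10 with columns median-centred, 0.63 and 0.52 without the 2 columns of another distribution, and A_15_P113369 gave 0.14 with sample weights. In MZ_Sox2 against MZ A_15_P113369 gave 0.05 without mapping, 0.17 with no dye covariate, 0.31 with sample weights, 0.13 with the control feature class in place of dye, and 0.17 with WT replicates 1 and 2 averaged and no dye covariate, while A_15_P117974 gave -0.08 without the 2 columns and -0.17 with only the groups compared in the fit. In WT_Sox2 against WT the control feature class gave -0.21 and -0.22. For the difference between genotypes A_15_P117974 gave 0.08 without mapping, and the probes gave 0.06 and 0.22 with no dye covariate, 0.35 and 0.48 with the control feature class, and 0.05 and 0.21 with WT replicates 1 and 2 averaged. The cause was not tested. The control feature class, the fit without the 2 columns and the averaged WT samples were added after the data were seen.

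With the replicate block, which the labels do not support as a pairing, 0 POU probes were called in each comparison. pou5f3 A_15_P113369 stood at 0.97 in MZ against WT (adjusted p = 0.388) and -0.98 in MZ_Pou5f1 against MZ (adjusted p = 0.535), and all-probe calls were 3 in MZ against WT, 0 in WT_Sox2 against WT and 0 in MZ_Sox2 against WT_Sox2. Slide as a fixed block gave no value for MZ_Sox2 against MZ, WT_Sox2 against WT and MZ_Pou5f1 against MZ_Sox2, since slides 1 and 2 share no group with slides 3 and 4. Leaving out dim probes, those with a mean under the median of all probes, removed pou2f1b and pou3f1. pou2f1b was above both negative control features in 14 of 16 samples and pou3f1 in 3.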

Other observations

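WT_Sox2 replicates 1 and 2 had a summed intensity of 800 and 870 over 10 control features of the E1A family, where each other sample had at least 24700. The pou5f3 probe A_15_P113369 read 25900 and 38200 in them, within the range of the other samples. One pou4f2 probe, A_15_P121145, read 769 in WT replicate 3, while its median over the 16 samples was 7.14. It was singled out after its values were seen. pou4f2 is a class IV gene known from retinal ganglion cells, and its other probe, A_15_P120795, ran between 6.21 and 42.2.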
